A study of Homo sapiens with 4 samples.

Results

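The hypoxia response genes described here are 2 subunits of the hypoxia-inducible factors (HIFs), *HIF1A* and *EPAS1*, and 8 genes that HIFs are known to induce, *VEGFA*, *ADM*, *ANGPTL4*, *CA9*, *EGLN1*, *EGLN3*, *PDK1* and *NDRG1*. They were taken by symbol from a table of raw gene counts, and all 10 were found among its 63677 genes. The counts came from LX-2 cells, an immortalized human hepatic stellate cell line, in 2 groups of 2 libraries. One group received a negative control miRNA mimic, named miControl, and the other received a mimic of miR-6133-5p, each at 20 nM. Both groups were treated 24 h later with 5 ng/mL of recombinant human TGF-β1 (rhTGF-β1), and RNA was collected 24 h after that. Every library therefore comes from TGF-β1-treated cells, there is no library of cells kept at low oxygen, and the groups are treatments of a single cell line. The question was whether *VEGFA*, which is lower with miR-6133-5p, is lower together with the other HIF targets or alone.

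HIFs are transcription factors made of an oxygen-regulated α subunit and a constant β partner, ARNT. When oxygen is present, the prolyl hydroxylases (EGLN proteins) modify the α subunit, the VHL protein then marks it for degradation, and so the amount of α subunit protein is set largely after translation. When oxygen is low, the α subunit persists, pairs with ARNT and binds DNA at a short core, ACGTG or GCGTG, near genes for blood vessel growth, glucose use and matrix processing. Stellate cells are the main matrix-producing cells of the injured liver and a source of VEGF there. *HIF1A* mRNA and HIF-1α protein can therefore differ in their behaviour, and only mRNA was measured.

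The core that HIFs bind is shown first, in the stretches of promoter that hold it, because it is the sequence through which HIFs are known to act on their targets. RefSeq promoter windows (GRCh38.p14, 250 bases before to 50 bases after each gene's start) were matched for 8 of the 10 genes, not for *VEGFA* and *NDRG1*. Both cores were searched on both strands, and at least 1 match was found for 7 of the 8 genes, all but *EGLN3*. *HIF1A* and *PDK1* each have 2 windows, with a match in 1 of them, so that 7 of 10 windows held a match. Of all 35116 RefSeq promoters, 21.4% held ACGTG, 36.5% held GCGTG and 48.4% held either, so these short letters are common and a match is a description of the sequence alone. The 30 bases around a match before the start are given 5′ to 3′ on the gene's strand, with the matched letters in capitals and a match on the other strand read as its reverse complement.
HIF1A, chr14:61695297-61695326, plus strand: tggctgagagcgGCGTGggctggggtgggg
EPAS1, chr2:46297278-46297307, plus strand: gggcctgccggcGCGTGcccgcccacacac
ADM, chr11:10304960-10304989, plus strand: gagcaggagcgcGCGTGgctgaggaaagaa
ANGPTL4, chr19:8363909-8363938, plus strand: ggaaagaagagtCACGTctcccacggttcg
CA9, chr9:35673898-35673927, plus strand: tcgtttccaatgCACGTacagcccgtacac
EGLN1, chr1:231422288-231422317, minus strand: ccgcggggccgtggtgtACGTGcagagcgc
PDK1, chr2:172556060-172556089, plus strand: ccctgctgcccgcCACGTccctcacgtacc
In the windows shown, the genes with GCGTG are the 2 HIF subunits and *ADM*, and the other 4 hold ACGTG. In *PDK1* the same 30 bases hold a second match, left in lower case.

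Library totals ran from 51862006 to 93811213 counts, the largest being miR-6133-5p replicate 2. Levels are given as CPM, the counts of a gene scaled to a fixed library size, with totals scaled by TMM, a method that sets the libraries to a common level over most genes. The edgeR quasi-likelihood F test was run over 18252 genes that passed a filter on low counts, and a gene was called when its Benjamini–Hochberg adjusted p-value was under 0.01 and its log2 fold change (miR-6133-5p over miControl) was beyond 0.8 in either direction. With library totals alone in place of TMM, the median log2 fold change of all genes moved from 0.03 to 0.19, and the calls moved from 1011 lower and 529 higher to 709 lower and 977 higher, so fold changes near the threshold depend on the scaling. Of the stellate cell markers, *COL1A1*, *COL1A2*, *VIM*, *PDGFRB* and *THY1* were tested, whereas *DES* and *LRAT* were at or near 0. *THY1* was itself low, with means of 0.706 CPM in miControl and 0.892 CPM in miR-6133-5p. The summed marker level was 4597 to 5067 CPM in miControl and 2764 to 3090 CPM in miR-6133-5p, where both collagen genes were called lower. The summed levels of hepatocyte, endothelial, leukocyte and bile duct marker lists stayed at or below 7.30 CPM in every library. In bulk RNA, fewer cells that express a gene and less of its RNA per cell cannot be told apart.

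Of the 10 hypoxia response genes, 9 were tested, 3 were called lower and none was called higher. The corresponding shares of all tested genes were 5.54% for lower and 2.9% for higher. The 3 called genes were *VEGFA*, the endothelial growth factor, *ANGPTL4*, a secreted inhibitor of lipoprotein lipase, and *EPAS1*, which encodes HIF-2α. At the adjusted p-value alone, without the fold threshold, *ADM* and *NDRG1* were lower too, making 5 of 9 (10.9% of all tested genes), and none of the 9 was higher (7.96% of all tested genes). In 6 of the 9, the miControl libraries were both above both libraries of miR-6133-5p, an arrangement that 31.3% of all tested genes showed. *HIF1A*, *EGLN1*, *EGLN3* and *PDK1* did not pass at the adjusted p-value. The median log2 fold change of the 9 genes was −0.58, beside 0.03 for all tested genes. The list holds genes whose values were already known from these libraries, and *VEGFA* was picked by the study from them, so these counts are a description of the list.

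**Figure D1:**
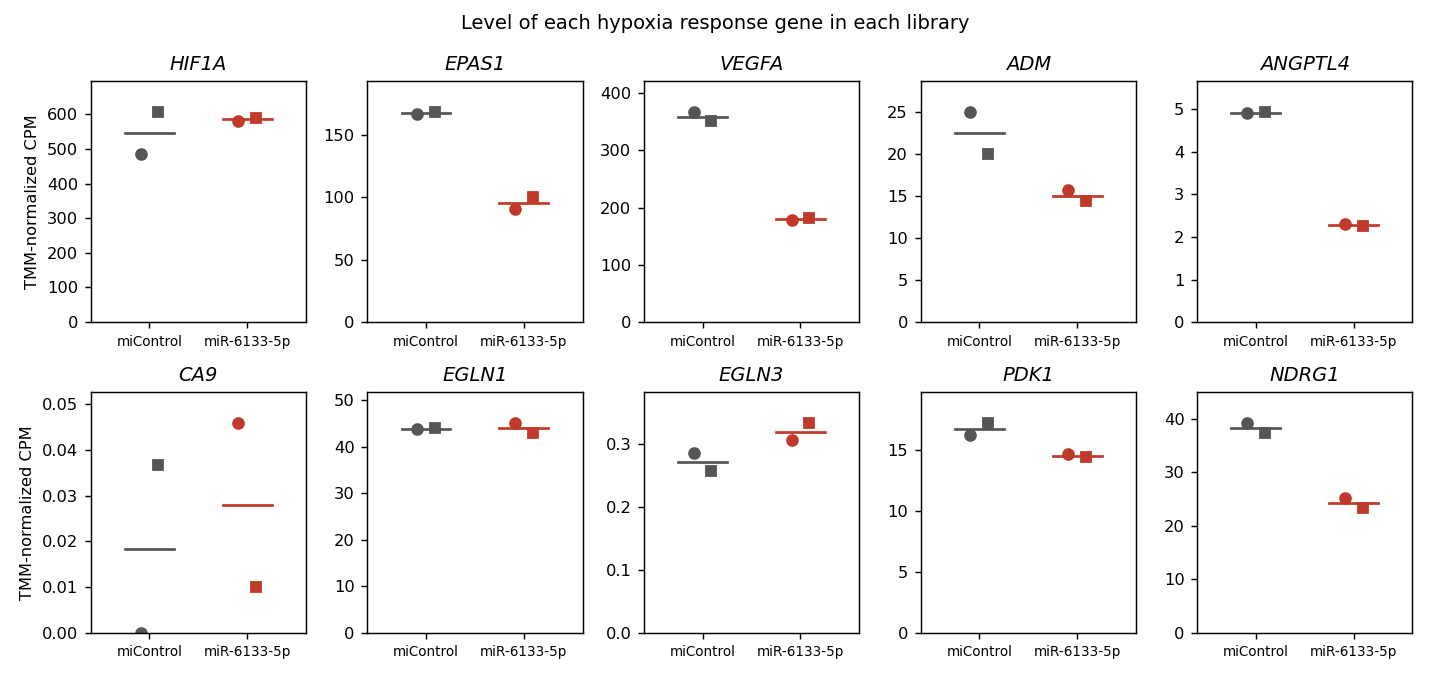
TMM-normalized CPM (vertical axes, each starting at 0) of the 10 hypoxia response genes in miControl (grey) and miR-6133-5p (red). Circles are replicate 1, squares replicate 2 and bars the mean of 2 libraries. *EPAS1*, *VEGFA*, *ADM*, *ANGPTL4*, *PDK1* and *NDRG1* have both red points below both grey points, while *HIF1A*, *EGLN1* and *CA9* overlap.

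The genes differed widely in abundance. Per kilobase of the canonical transcript, the miControl order was *HIF1A* at 138 CPM per kb, *VEGFA* at 99.4, *EPAS1* at 32.4, *ADM* at 15.0, *NDRG1* at 12.6, *EGLN1* at 10.1, *ANGPTL4* at 2.62, *PDK1* at 1.19, *EGLN3* at 0.100 and *CA9* at 0.0119 CPM per kb. No 2 neighbours in that order overlapped between their libraries. With miR-6133-5p the first 3 places were the same, with *HIF1A* at 148, *VEGFA* at 49.8 and *EPAS1* at 18.5 CPM per kb. *EGLN1*, at 10.2 CPM per kb, then overlapped with *ADM*, at 10.1, so that the order of these 2 genes was not resolved.

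The 2 HIF α subunits moved differently. *HIF1A* (chr14:62162231-62214977, GRCh37), which encodes HIF-1α, stood at 485.6 and 605.6 CPM in the miControl libraries and at 581.3 and 590.6 CPM in the miR-6133-5p libraries. The miR-6133-5p values lay between the 2 miControl values, and the miControl replicates were the farthest apart of any pair for this gene (545.6 ± 84.8 CPM, SD, n = 2, beside 586.0 ± 6.61). The log2 fold change of *HIF1A* was 0.10 (SE 0.12, 95% interval −0.15 to 0.36, edgeR adjusted p = 0.562). Without miControl replicate 1 it was −0.06, so the direction of *HIF1A* was not resolved, and the lower end of its interval lies well above the value of *VEGFA*.

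*EPAS1* (chr2:46520806-46613836) was at 166.5 and 167.9 CPM in miControl and at 90.8 and 100.2 CPM in miR-6133-5p, so every miR-6133-5p library was well below both controls. Its mean fell from 167.2 ± 0.983 to 95.5 ± 6.71 CPM, to 57.1% of miControl. The log2 fold change was −0.81 (SE 0.10, 95% interval −1.03 to −0.58, edgeR adjusted p = 7.09e-05), just past the fold threshold. Without miR-6133-5p replicate 1 it was −0.76, and with library totals alone −0.64. In both cases the adjusted p-value stayed under 0.01 and the fold did not pass the threshold.

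The prolyl hydroxylases, which are themselves HIF targets and limit the response, gave no call. *EGLN1* (chr1:231499497-231558033), the main HIF prolyl hydroxylase, had 43.75 and 43.95 CPM in miControl and 45.04 and 43.01 CPM in miR-6133-5p. The groups overlapped almost fully, with a log2 fold change of 0.01 (SE 0.10, 95% interval −0.21 to 0.22, edgeR adjusted p = 0.976). A limit on this value is that 55.8% of the exon bases of *EGLN1* lie in another annotated gene on the same strand, where counting could divide the reads. *EGLN3* (chr14:34393433-34931980), the hydroxylase most strongly induced by hypoxia in many cells, was close to the detection limit, with 14 and 14 counts in miControl and 20 and 33 counts in miR-6133-5p. These corresponded to 0.285 and 0.257 CPM against 0.306 and 0.333 CPM, and the log2 fold change of 0.24 had an SE of 0.50 and a 95% interval from −0.84 to 1.33 (edgeR adjusted p = 0.77). At that depth neither a fall as large as that of *EPAS1* nor a rise of that size was detectable for *EGLN3*.

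The 3 secreted factors were all lower at the adjusted p-value, by different amounts. *VEGFA* (chr6:43737921-43754224), which drives endothelial growth and vessel permeability, had 366.1 and 351.6 CPM in miControl and 178.4 and 181.1 CPM in miR-6133-5p. The 2 groups were far apart beside the spread within each (358.8 ± 10.2 and 179.8 ± 1.90 CPM), and the mean in miR-6133-5p was 50.1% of miControl. The log2 fold change was −0.997 (SE 0.10, 95% interval −1.22 to −0.78). It ran from −1.05 to −0.83 over all alternative settings, the smallest difference being the one with library totals alone.

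*ANGPTL4* (chr19:8428173-8439254) was much less abundant than *VEGFA*, with 4.90 and 4.92 CPM in miControl and 2.29 and 2.25 CPM in miR-6133-5p, from 241 and 268 counts and from 150 and 223 counts. Its level in miR-6133-5p was 46.3% of miControl, the largest relative difference among the 9 tested genes. The log2 fold change was −1.11 (SE 0.18, 95% interval −1.498 to −0.726, edgeR adjusted p = 0.000408). Without miControl replicate 1 the adjusted p-value was 0.0122 at a log2 fold change of −1.13, and the gene was then not called.

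*ADM* (chr11:10326620-10328944), which encodes the vasodilator peptide adrenomedullin, had 24.9 and 20.0 CPM in miControl and 15.7 and 14.4 CPM in miR-6133-5p. The groups did not overlap, although the 2 miControl libraries were farther apart than the gap between the groups. The log2 fold change was −0.58 (SE 0.13, 95% interval −0.86 to −0.30, edgeR adjusted p = 0.00451), which passed the adjusted p-value and not the fold threshold. The adjusted p-value of *ADM* was 0.116 without miControl replicate 1 (log2 fold change −0.42) and 0.0251 with library totals alone, both above the threshold.

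Among the intracellular proteins, *NDRG1* was lower at the adjusted p-value, *PDK1* gave no call and *CA9* was not measurable. *NDRG1* (chr8:134249418-134314265), a cytoplasmic protein induced by hypoxia and other stresses, had 39.2 and 37.3 CPM in miControl and 25.1 and 23.3 CPM in miR-6133-5p. Both miR-6133-5p libraries were below both controls, at 63.3% of the miControl mean, with a log2 fold change of −0.66 (SE 0.11, edgeR adjusted p = 0.000442), short of the fold threshold. Without miControl replicate 1 the adjusted p-value of *NDRG1* was 0.02 (log2 fold change −0.64). *PDK1* (chr2:173420101-173473397), the pyruvate dehydrogenase kinase that diverts pyruvate from the mitochondria, had 16.2 and 17.2 CPM in miControl and 14.6 and 14.4 CPM in miR-6133-5p. The groups did not overlap, but the log2 fold change was only −0.20 (SE 0.12, 95% interval −0.45 to 0.05, edgeR adjusted p = 0.22). *CA9* (chr9:35673925-35681156), the cell-surface carbonic anhydrase often used as a marker of hypoxia, had 0 and 2 counts in miControl and 3 and 1 counts in miR-6133-5p. *CA9* did not pass the filter on low counts, so the test gave no fold change for it. Its counts did not exceed the floor taken for these libraries, 3 counts or at most 0.0610 CPM.

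**Figure D2:**
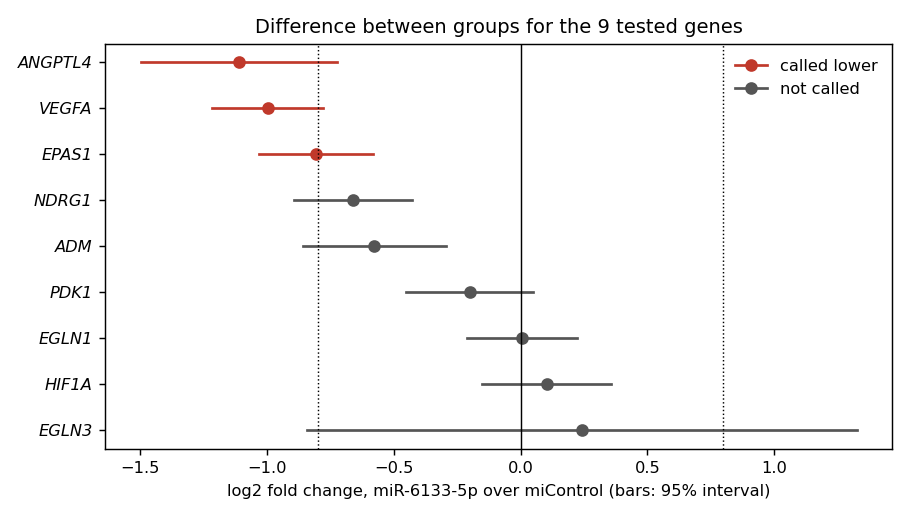
Log2 fold change of miR-6133-5p over miControl (horizontal axis) for the 9 tested hypoxia response genes, with 95% intervals, dotted lines at the thresholds of −0.8 and 0.8, and called genes in red. *ANGPTL4*, *VEGFA* and *EPAS1* are past −0.8 with intervals that cross it, and the interval of *EGLN3* (−0.84 to 1.33) is far wider than those of the others.

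The intervals of the 3 called genes bear on how firmly their size is known. The fold threshold above is applied to the estimate. When the test instead asked whether the log2 fold change exceeds 0.8 beyond its error (edgeR's glmTreat), none of the 9 genes passed, with an adjusted p-value of 0.209 for *VEGFA*, 0.28 for *ANGPTL4* and 1 for *EPAS1*. A difference from 0 was therefore resolved for these genes, and a difference larger than 0.8 was not.

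**Figure D3:**
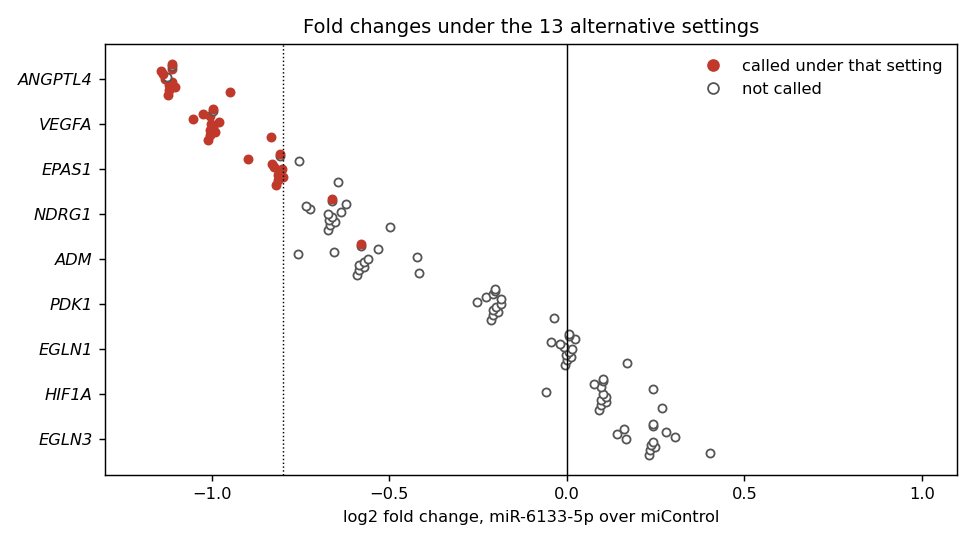
Log2 fold change (horizontal axis) of the 9 tested hypoxia response genes under each of the 13 alternative settings, 1 point per setting, red where the gene was called lower and open where it was not, with a dotted line at −0.8. *VEGFA* stays between −1.05 and −0.83, *EPAS1* lies on both sides of the line (−0.90 to −0.64), and *HIF1A* and *EGLN1* lie on both sides of 0.

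*VEGFA* was then compared with each of the other 8 tested genes within a library, as the log2 ratio of *VEGFA* to that gene, which does not depend on the scaling of the library. Relative to *HIF1A* the ratio was −0.41 and −0.78 in miControl and −1.70 and −1.71 in miR-6133-5p, a difference of −1.11. It was lower by a similar amount relative to *EGLN1* (−1.002) and *EGLN3* (−1.24), and by −0.80 relative to *PDK1*. Relative to the genes that were themselves lower, the differences were smaller, at −0.43 for *ADM*, −0.34 for *NDRG1* and −0.19 for *EPAS1*. Relative to *ANGPTL4* the ratio was 6.22 and 6.16 in miControl and 6.28 and 6.33 in miR-6133-5p, higher by 0.12. The ratios of the 2 groups did not overlap for any of the 8 genes. All 8 ratios share *VEGFA*, so they are not separate observations. In the levels of single genes such a separation was common, at 31.3% of all tested genes lower and 33.2% higher with miR-6133-5p. For each ratio an exact 2-sided permutation test over 4 libraries gave p = 0.333, and it cannot give less. On these values *VEGFA* was not lower alone. Within 0.2 of it on the log2 scale were *ANGPTL4*, the only other target called, and *EPAS1*, which is a HIF subunit and not one of the targets. *VEGFA* was not lower together with all the HIF targets of the list either. Of the 7 other targets, 6 were tested and 1 was called lower, beside 5.54% of all tested genes, and 3 were lower at the adjusted p-value alone, beside 10.9%. The median of the 6 was −0.39 (log2 fold change).

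The genes whose pattern over the 4 libraries was most like that of *VEGFA*, among 9428 genes with a symbol and a mean log2 CPM of at least 3, were *SUSD6*, *UBE2Q1* and *CCDC149*. The measure was the Euclidean distance between log2 CPM values centred on each gene's mean, which was 0.0207 for *SUSD6*, 0.0326 for *UBE2Q1* and 0.0363 for *CCDC149*. *SUSD6*, for instance, had 45.8 and 44.1 CPM in miControl and 22.7 and 23.0 CPM in miR-6133-5p. With 4 libraries in 2 groups, likeness to *VEGFA* amounts mainly to a fall of the same size (log2 fold changes of −0.98, −0.99 and −1.02), and none of the 3 genes belongs to a list of HIF targets used here.

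The machinery around the α subunits was taken from a list of 9 HIF partners and oxygen-sensing genes, of which 8 were tested. None was called lower, beside 5.54% of all tested genes, and 1 was called higher, beside 2.9%. The gene called higher was *ARNT2*, a β subunit related to ARNT that is best known from the nervous system. It rose from 6.69 ± 0.253 to 20.5 ± 1.78 CPM (log2 fold change 1.62, SE 0.13, edgeR adjusted p = 1.12e-06). *ARNT*, the general β subunit, went from 52.3 ± 1.43 to 44.2 ± 2.00 CPM (log2 fold change −0.24, edgeR adjusted p = 0.0923) and gave no call. Per kilobase, *ARNT* remained the more abundant of the 2 β subunits, at 9.39 beside 3.15 CPM per kb for *ARNT2* in miR-6133-5p.

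*VHL*, the subunit that recognizes hydroxylated HIF-α, was higher at the adjusted p-value without reaching the fold threshold, from 39.9 ± 1.25 to 54.8 ± 4.64 CPM (log2 fold change 0.46, edgeR adjusted p = 0.00528). Without miControl replicate 1 or replicate 2 the log2 fold change of *VHL* was 0.42 or 0.46, and without miR-6133-5p replicate 2 it was 0.36. In each of these fits the adjusted p-value was above the threshold. Of the exon bases of *VHL*, 23.5% overlap a gene on the opposite strand. *EGLN2*, the third prolyl hydroxylase, had a log2 fold change of 0.54 (edgeR adjusted p = 0.0155), and *HIF1AN*, the asparagine hydroxylase that blocks HIF's coactivator contact, one of 0.14 (edgeR adjusted p = 0.363). Neither *EGLN2* nor *HIF1AN* passed the test. Of the exon bases of *EGLN2*, 30.6% lie in another annotated gene on the same strand, where counting could divide the reads. *EP300*, a HIF coactivator named here after its value was seen, was the one gene of the list lower at the adjusted p-value, from 166 ± 2.29 to 114 ± 25.4 CPM (log2 fold change −0.54, edgeR adjusted p = 0.00858). The median log2 fold change of the 8 genes was −0.03.

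HIF targets outside the 10 genes were taken in 3 lists, 51 genes in all, and every one was tested. Of the 51, the test placed 8 lower and 3 higher, or 15.7% and 5.88%, beside 5.54% and 2.9% of all genes, and their median log2 fold change was 0.13. Their log2 fold changes ran from −2.31 to 1.51, so they did not move as 1 group. With library totals alone the calls were 5 lower and 5 higher.

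The list for glucose uptake and glycolysis held 20 genes, 2 called lower and 3 called higher, around a median of 0.21 (log2 fold change). These calls are 10% and 15% of the list, beside 5.54% and 2.9% of all tested genes. The lower pair was *SLC2A3*, a high-affinity glucose transporter (43.8 ± 2.63 to 23.0 ± 1.26 CPM, log2 fold change −0.93), and *HK2*, the inducible hexokinase (79.0 ± 1.19 to 44.6 ± 4.59 CPM, log2 fold change −0.82). With library totals alone they were at −0.76 and −0.66, and neither was called. *HK2* was also not called without miR-6133-5p replicate 1, at −0.74. Those called higher were *ENO2*, an enolase (23.5 ± 0.357 to 67.2 ± 2.39 CPM, log2 fold change 1.51), *PFKFB4*, a regulator of the glycolytic rate (14.4 ± 0.338 to 35.6 ± 1.77 CPM, log2 fold change 1.31), and *SLC16A3*, the lactate exporter (70.5 ± 4.12 to 138 ± 2.37 CPM, log2 fold change 0.97).

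Of the glycolytic HIF targets outside these calls, *SLC2A1* and *LDHA* were higher at the adjusted p-value, opposite in direction to *VEGFA*, and *PGK1* did not pass it. *SLC2A1*, the glucose transporter most often measured as a HIF target, had 100 ± 3.90 CPM in miControl and 154 ± 5.09 CPM in miR-6133-5p (log2 fold change 0.62, edgeR adjusted p = 0.000469), below the fold threshold. *LDHA*, lactate dehydrogenase, had a log2 fold change of 0.47 (edgeR adjusted p = 0.00522). With miControl replicate 1 or replicate 2 left out, the log2 fold change was 0.65 or 0.56 for *SLC2A1* and 0.45 or 0.44 for *LDHA*. The adjusted p-values of both genes were then above the threshold, so these results rest on both miControl libraries. *PGK1*, phosphoglycerate kinase, was close to 0 at −0.01 (edgeR adjusted p = 0.955), and at 0.15 with library totals alone. At the adjusted p-value alone, 7 of the 20 genes were higher, beside 7.96% of all tested genes, and 2 were lower, beside 10.9%. *GPI*, glucose-6-phosphate isomerase and named here after its value was seen, lay just outside that threshold, from 213 ± 4.23 to 164 ± 3.94 CPM (log2 fold change −0.38, edgeR adjusted p = 0.0122).

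The 8 HIF targets that act on the matrix lay lowest of the 3 lists, around a median of −1.06 (log2 fold change). Of the 8, 5 were called lower, beside 5.54% of all tested genes, and none was called higher, beside 2.9%. The 1 gene of the list above 0 was *P4HA1*, at 0.15, which was not called. Among the 5 called lower were *CTGF* (now *CCN2*), a matricellular growth factor (log2 fold change −2.31), *LOX* (−1.23) and *LOXL2* (−1.04), which cross-link collagen, and *PLOD2*, a lysyl hydroxylase of collagen (−1.12). *CTGF* went from 1344 ± 7.65 to 271 ± 30.4 CPM. These called genes are TGF-β targets as well as HIF targets. *CTGF*, *LOX* and *LOXL2* are among those the study listed as lower from these libraries, so their direction is not independent evidence. The levels of *COL1A1* and *COL1A2* moved with them, and the part of TGF-β signalling in these values was not tested.

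The other 23 HIF targets, which serve mitophagy, lipid and iron handling, chromatin and stress responses, were mostly not called. *AK4*, a mitochondrial adenylate kinase, was the one called lower, from 8.73 ± 0.747 to 4.503 ± 0.0518 CPM (log2 fold change −0.95). That is 4.35% of the list, beside 5.54% of all tested genes. With library totals alone *AK4* was at −0.79 and was not called. *ERO1A*, an endoplasmic reticulum oxidase chosen here after its value was seen, was just outside the threshold at −0.80. Under several alternative settings, RLE normalization and DESeq2 among them, 2 of the 23 genes were called lower. The median of the 23 genes was 0.14.

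**Figure D4:**
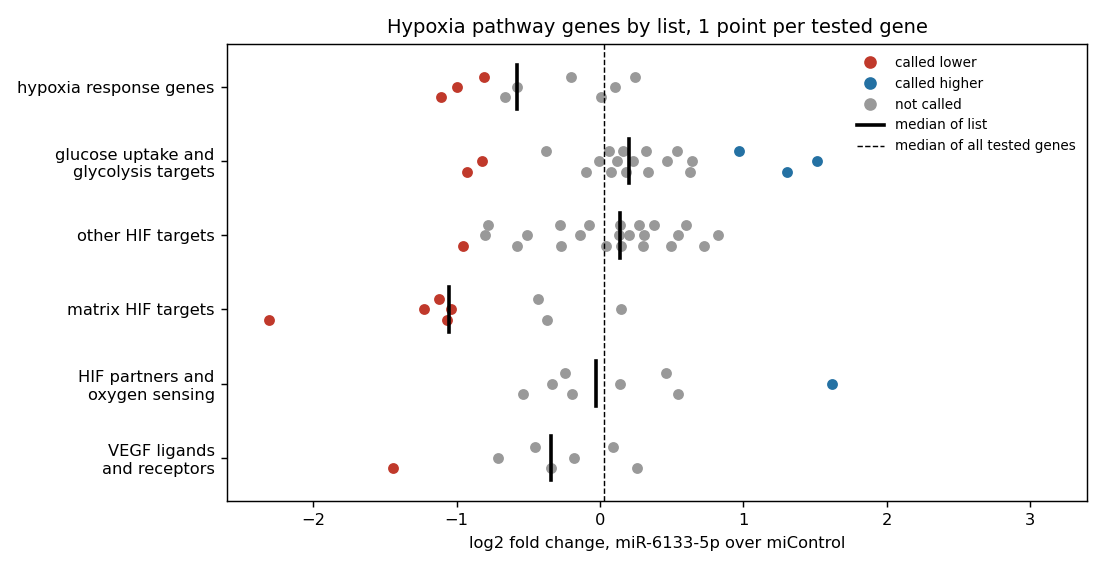
Log2 fold change of miR-6133-5p over miControl (horizontal axis), 1 point per tested gene, for the hypoxia response genes and 5 lists of pathway genes, red where called lower, blue where called higher and grey where not called. Black bars are list medians and the dashed line is the median of all tested genes (0.03). The matrix targets other than *P4HA1* (0.15) lie left of the line (list median −1.06) and the glycolysis targets spread to both sides (median 0.21).

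The VEGF family list held 9 other ligands and receptors, 7 of them tested and 1 of them called lower, beside 5.54% of all tested genes, around a median of −0.34 (log2 fold change). *VEGFA* was the most abundant ligand per length, at 99.4 CPM per kb in miControl beside 31.5 for *VEGFB*, 16.5 for *VEGFC* and 0.597 for *PGF*. With miR-6133-5p, *VEGFA* at 49.8 CPM per kb was still above *VEGFB* at 33.5 CPM per kb. The gene called lower was *FLT1*, the high-affinity VEGFA receptor, which was rare in these cells (1.47 ± 0.256 to 0.538 ± 0.0184 CPM, log2 fold change −1.44, SE 0.32, edgeR adjusted p = 0.00432). Without miControl replicate 1 its adjusted p-value was 0.0744 and without miControl replicate 2 it was 0.0149, so the call rests on both. *NRP2*, a VEGF coreceptor and chosen here after its value was seen, had a log2 fold change of −0.71 (edgeR adjusted p = 0.000475), short of the fold threshold.

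Close relatives of the 10 genes and 2 further lists were looked up in the same fit. Of 9 paralogs, none was called lower (5.54% of all tested genes) and 1 was called higher (2.9% of all tested genes). Their median was 0.03 (log2 fold change). That gene was *PDK4*, a pyruvate dehydrogenase kinase like *PDK1*, which rose from 0.287 ± 0.0611 to 0.963 ± 0.0644 CPM (log2 fold change 1.74, SE 0.40, edgeR adjusted p = 0.00477). The *PDK4* call was lost without either miControl library (adjusted p-values of 0.0668 and 0.0255), without miR-6133-5p replicate 2 (0.0121) and in DESeq2 (0.0125). *ANGPTL4* and *PDK4* are also targets of PPAR nuclear receptors. Of 6 PPAR targets in a list that holds *PDK4*, 5 were tested, with a median of 0.45. Only *PDK4* was called higher, beside 2.9% of all tested genes, and none was called lower, beside 5.54%. Of the 4 adrenomedullin receptor genes 2 were tested and neither was called, their mean levels being at most 0.388 CPM. The shares of all tested genes were 5.54% called lower and 2.9% called higher, so 2 genes without a call say little.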

How the data were processed

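Libraries of LX-2 cells transfected with miR-6133-5p or miControl were analysed, 2 per group. The authors deposited whole-number counts per Ensembl gene, with no normalization. The submitters' processing notes name GRCh37, STAR 2.5.3a, Subread 1.6.4 and featureCounts. The kit keeps strand, and the strand setting and annotation release of the counting are not given in the sources used here. Per-library copies of the counts and the mapping summary were not used. As nothing states separate cultures, p-values measure the spread between these libraries, which may be technical.

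Counts were filtered with filterByExpr, scaled by TMM and, without a block, tested with the quasi-likelihood F test of edgeR 4.0.16 (R 4.3.3), and p-values were adjusted by Benjamini–Hochberg over 18252 genes. The thresholds of 0.01 and 0.8 (log2) are those of the paper's methods. SEs come from the F statistic. CPM used no pseudocount. DESeq2 1.42.0 was an alternative. The fits were tested on simulated data. In these libraries 3 counts are at most 0.0610 CPM. Symbols came from a gene name table (43631 of 63677 identifiers, 119 of 120 listed symbols matched). Positions, lengths and exon overlaps are those of GENCODE as lifted to GRCh37, possibly not the annotation that was counted, and promoters from RefSeq on GRCh38.p14.

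The 10 genes and all lists (HIF partners, 3 lists of HIF targets, VEGF family, adrenomedullin receptor, paralogs, PPAR targets and cell markers) were chosen with earlier results of these data known. Genes named by rule are the 10, the called genes of each list, 7 fixed HIF pathway genes (*VHL*, *ARNT*, *HIF1AN*, *EGLN2*, *SLC2A1*, *LDHA*, *PGK1*) and the 3 genes nearest to *VEGFA*. Outside that rule, *EP300*, *GPI*, *ERO1A*, *NRP2* and *P4HA1* were named after their values were seen. *VEGFB*, *VEGFC* and *PGF* were named to compare the VEGF ligands, and cell markers to describe the cells. Alternatives changed the scaling, tool, filter, depth, threshold or libraries, 13 settings in all. Matches of the mimic's seed were not analysed here. The result of 1 listed gene is not reported here.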

Additional observations from a re-analysis of the deposited data

How the results depend on the processing

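Over 13 alternative settings, the 9 tested hypoxia response genes gave 117 results, of which 102 kept their direction and their side of the threshold. Among the counts over all genes, over the hypoxia response genes and over the HIF target lists together, those that moved by more than 1.5 times were these. With library totals alone, 977 genes were called higher, and 5 genes of the HIF target lists were called lower and 5 higher. With glmTreat against 0.8, 326 genes were called lower and 80 higher, with 2 of the HIF target lists and 0 hypoxia response genes lower, and *VEGFA* at −0.9971 was not called. At an adjusted p under 0.05 with no fold threshold, 2937 genes were lower and 2574 higher, with 14 lower and 13 higher of the HIF target lists and 5 hypoxia response genes lower. Leaving out 1 library gave 293 to 587 genes called higher, the lowest without miControl replicate 1. Counts within single lists were small and moved more often. Of the other HIF targets, 2 in place of 1 were called lower with RLE normalization and in DESeq2. The count was also 2 with at least 10 counts in every library, with the replicate number as a block and with thinned counts. It was 0 with library totals alone and with glmTreat. Of the glycolysis targets, 0 in place of 2 were called lower with library totals alone. Of the matrix targets, 2 in place of 5 were called lower with glmTreat. The counts of the other HIF targets and of the VEGF family also moved in fits that left out 1 library.

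Values near 0 changed sign. *EGLN1* was at −0.0063 with RLE normalization, −0.0008 in DESeq2 and −0.0016 with at least 10 counts in every library, and ran from −0.0449 to 0.0234 when 1 library was left out. *HIF1A* ran from −0.0587 to 0.2431 and *PGK1* from −0.0759 to 0.0215 when 1 library was left out, and *PGK1* was at 0.1535 with library totals alone. The cause was not tested. When 1 library was left out, the lone library of a group was assumed to vary like the other group.

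With the replicate number as a replicate block, 1130 genes were called lower and 642 higher, 3 hypoxia response genes were called lower, and *VEGFA* stood at −0.9969. The labels name no shared batch, and libraries of the same number deviated together with a correlation of 0.049. With 2 libraries per group, this single value over all genes cannot exclude a batch shared by libraries of the same number. For *CA9* and *EGLN3*, which were near the floor, no difference was resolved at this depth with 2 libraries per group. *PDK4*, at 0.287 CPM in miControl beside 0.271 CPM for *EGLN3*, was called higher at a log2 fold change of 1.74. A difference that large could thus be called at that level, although the *PDK4* call was lost in several settings.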
